A study of Mus musculus with 6 samples.

Results

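The genes described here are those of extracellular matrix proteolysis in the mouse uterus, chosen by name from known gene families when earlier results of these data were already known. They are 37 of the 56748 genes listed for each uterus, namely 16 matrix metalloproteinases (MMPs), 12 ADAMTS proteases, 4 tissue inhibitors of metalloproteinases (TIMPs) with the membrane inhibitor *Reck*, and 4 genes of plasminogen activation. RNA-seq was performed on 3 whole uteri of the control and 3 of *Gp130* ecKO, all taken on day 4 (1600 h) of pregnancy, shortly before embryos attach. The *Gp130* ecKO females carried *Ltf*-iCre on 1 allele and floxed *Gp130* on both, so that deletion was driven by the lactoferrin promoter, which is active in the uterine epithelium and also in some myeloid cells. The control is labelled as wildtype, and by the methods of the study such females were either wildtype or homozygous for floxed *Gp130* without iCre. All were over 8 weeks old, on a C57BL/6 background (C57BL/6J in the methods of the study), and mated with fertile wildtype males, and all 6 uteri were therefore from pregnant animals.

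As background, MMPs and ADAMTS proteases are zinc enzymes that are made as inactive precursors and cleave matrix proteins outside the cell. MMPs act on collagens, laminins and fibronectin among others, whereas several ADAMTS proteases cleave the large proteoglycans versican and aggrecan. TIMPs bind and block the active enzymes, and plasmin, made from plasminogen by its activators, can process some of the precursors. In the uterus, remodelling of the stromal matrix and the basement membrane accompanies implantation, and Gp130 is the receptor subunit through which leukemia inhibitory factor activates STAT3.

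The promoters of the members are shown first for the letters of an AP-1 site, TGANTCA, and of a STAT site, TTCNNNGAA, because AP-1 is a known regulator of several MMP genes and STAT3 lies downstream of Gp130. In the 250 bases before the start of each gene's canonical transcript (GENCODE M39 on GRCm39, both strands searched, each motif being its own reverse complement), AP-1 letters were found in 9 of 37 members (24.3%), against 6.18% of 21757 protein-coding genes. The STAT letters were found in 1 of 37 (2.7%), against 7.70% of all promoters. Of the 9 genes with AP-1 letters, 8 were MMPs and the other was *Plaur*, while no ADAMTS promoter held them. Among these MMPs, *Mmp3*, *Mmp7*, *Mmp10*, *Mmp12* and *Mmp13* are neighbours in a cluster on chromosome 9. They cannot be taken as independent members, so the share of AP-1 letters is a description and no test. The windows below are given 5′ to 3′ on the strand of the gene with the AP-1 letters in capitals, for all 9 genes, of which *Mmp10* and *Mmp13* were barely detected.
Mmp12, chr9:7347320-7347346, plus strand: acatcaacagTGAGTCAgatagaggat
Mmp3, chr9:7445766-7445792, plus strand: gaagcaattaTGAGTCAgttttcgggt
Mmp19, chr10:128626737-128626763, plus strand: tctctctggcTGAGTCAcctcccactg
Plaur, chr7:24161829-24161855, plus strand: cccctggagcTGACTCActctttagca
Mmp7, chr9:7692018-7692044, plus strand: agtgtgcaaaTGAGTCAcctatttcca
Mmp9, chr2:164790060-164790086, plus strand: acacacacgcTGAGTCAgcataagcct
Mmp28, chr11:83354174-83354200, minus strand: gcagagcattTGACTCAgagcatttcc
Mmp10, chr9:7502270-7502296, plus strand: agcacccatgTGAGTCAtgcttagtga
Mmp13, chr9:7272469-7272495, plus strand: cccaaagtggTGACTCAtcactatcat
The letters began 44, 46, 26 and 36 bases before the start in *Mmp12*, *Mmp3*, *Mmp19* and *Plaur*, and 63, 69, 73 and 35 bases before it in *Mmp7*, *Mmp9*, *Mmp10* and *Mmp13*. They began within 75 bases of the start in 8 of the 37 members (21.6%), against 1.76% of all promoters, and in *Mmp28* they began 204 bases before it. This window ends just past the farthest of the 8 matches, at 73 bases, so these shares are a description and no test. The STAT letters of *Adamts6* began 188 bases before its start and are in capitals in its window.
Adamts6, chr13:104424183-104424211, plus strand: cttcacaataTTCAATGAAaccttaaaaa
These are matches of letters only, and no binding was measured. Of the members with a match, the canonical starts of *Mmp12*, *Mmp9* and *Adamts6* lie inside the annotated genes, downstream of the start of other isoforms.

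**Figure D1:**
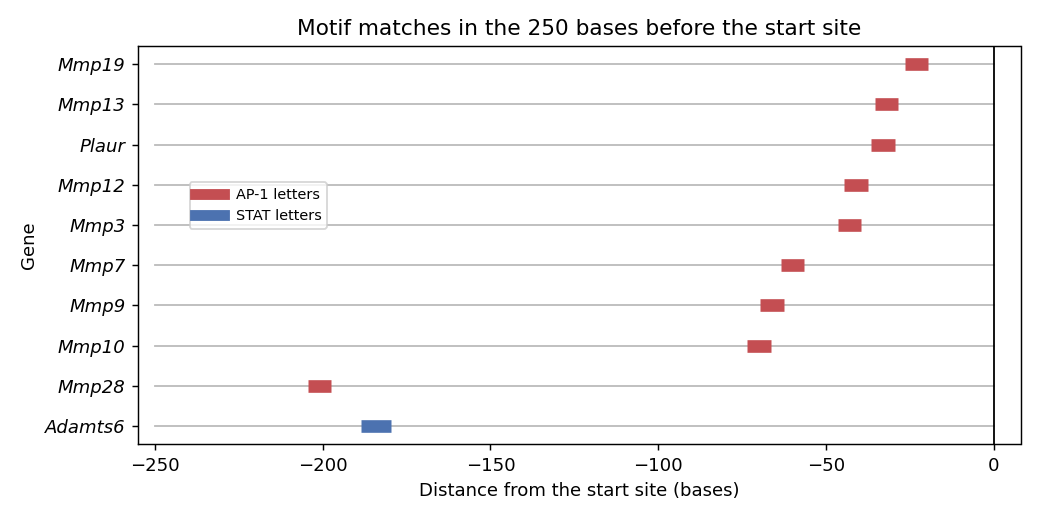
Positions of AP-1 letters (red) and STAT letters (blue) in the 250 bases before the start site of the 10 members that hold either, with distance from the start site in bases on the x axis and genes on the y axis. Of the 9 AP-1 matches, 8 lie within 75 bases of the start site and that of *Mmp28* lies 204 bases before it.

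The promoters of the 3 members with the smallest p-values in the comparison are also given, since the results turn on these genes. None of them holds either motif. They are written 5′ to 3′ on the strand of the gene and end at the base before the canonical start, except that the sequence of *Timp1* was shortened to 215 bases and ends before the start of a slightly longer isoform.
Timp1, chrX:20736101-20736315, plus strand: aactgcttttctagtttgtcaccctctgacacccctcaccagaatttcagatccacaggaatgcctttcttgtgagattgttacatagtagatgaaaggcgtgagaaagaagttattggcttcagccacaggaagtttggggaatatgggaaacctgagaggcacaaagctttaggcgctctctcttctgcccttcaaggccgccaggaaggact
Adamts1, chr16:85600010-85600259, minus strand: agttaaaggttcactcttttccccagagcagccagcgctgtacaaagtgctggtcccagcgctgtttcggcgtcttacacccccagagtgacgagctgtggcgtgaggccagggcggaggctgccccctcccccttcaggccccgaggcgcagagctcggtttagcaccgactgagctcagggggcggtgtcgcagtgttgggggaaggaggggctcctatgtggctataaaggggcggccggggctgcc
Adamts9, chr6:92920521-92920770, minus strand: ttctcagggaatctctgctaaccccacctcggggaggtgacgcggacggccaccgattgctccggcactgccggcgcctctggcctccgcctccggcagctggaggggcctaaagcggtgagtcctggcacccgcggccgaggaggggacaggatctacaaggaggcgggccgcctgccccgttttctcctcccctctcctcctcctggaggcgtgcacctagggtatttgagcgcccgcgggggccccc
Their GC content was 47.4%, 64.8% and 70.0%, against a median of 53.2% over all promoters.

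The total expected count per uterus was 13960748 in control 3 and 22930513 to 25906443 in the other 5 uteri, so weakly expressed genes were measured with the least precision in control 3. *Gp130* itself (symbol *Il6st*, ENSMUSG00000021756) was at 631, 678 and 452 CPM (counts per 1000000 scaled counts) in the 3 controls and at 388, 349.8 and 362 CPM in *Gp130* ecKO. It was lower in every *Gp130* ecKO uterus, in RNA that also came from cells outside the epithelium (log2 fold change −0.68, standard error 0.21, adjusted p = 0.12 by edgeR's quasi-likelihood test). The uterine genes *Hoxa10*, *Pgr* and *Esr1* were present in all 6 uteri, with 57.2 CPM as the lowest value, and embryo markers apart from *Elf5* were at or below 0.317 CPM. Marker genes of the cell types of the uterus also differed between the groups. Summed CPM of 6 epithelial markers was 1765 to 2769 in the control and 3991 to 5421 in *Gp130* ecKO, and that of 6 stromal markers was 2971 to 3973 and 1779 to 2446. Endothelial markers (4 genes) summed to 299.9 to 725 CPM in the control and 168 to 302 in *Gp130* ecKO. These sums overlapped slightly, since *Gp130* ecKO 2 was above control 3. Smooth muscle markers (5 genes) ranged from 448 to 1919 and from 339 to 2209 and did not separate the groups. In RNA from whole tissue, fewer cells of a type and less RNA per cell cannot be told apart.

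The comparison asked how transcripts of matrix proteolysis differed when *Gp130* was deleted in the epithelium. The smallest p-values were those of the inhibitor *Timp1* and the proteoglycan-cleaving *Adamts1* and *Adamts9*, whose values were lower in all 3 *Gp130* ecKO uteri. No member passed an adjusted p below 0.05 with a change of more than 2-fold in edgeR's quasi-likelihood test, which called 0.157% of all 16605 genes tested. Of the members, 32 passed the filter on low counts and were tested, and the sign of the fitted change, which is no test, was negative in 28 of them, against 52.9% of all genes. At an unadjusted p below 0.05, 14 of the 32 were lower (12.9% of all genes) and 1, *Mmp15*, was higher (12.1% of all genes). In 14 tested members the highest *Gp130* ecKO uterus was below the lowest control (15.6% of all genes), and 1, *Adamts6*, had every *Gp130* ecKO uterus above (15.7% of all genes). These counts of lower members include *Mmp12*, for which 3 controls and 0 *Gp130* ecKO uteri reached the cutoff of the filter. The count of negative signs also includes *Mmp7*, with 3 controls and 1 *Gp130* ecKO uterus. Both were thus tested through their level in the control. Over all 37 members, including the 5 below the filter, the groups did not overlap in 14 that were lower and 3 that were higher, and they overlapped in 20. The median log2 fold change was −0.74 over the tested members and −0.05 over all genes.

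By the same thresholds, edgeR's exact test called 10 members, all lower (3.73% of all genes lower and 3.73% higher). DESeq2 also called 10, all lower (4.87% of all genes lower and 4.42% higher). The calls had 9 genes in common, which were *Timp1*, *Adamts1*, *Adamts4*, *Adamts9*, *Adamts10*, *Mmp3*, *Mmp19*, *Plau* and *Plaur*. The exact test added *Mmp12*, for which DESeq2 gave no adjusted p and which was tested only through its level in the control, and DESeq2 added *Adamts15*. With control 2 left out, the quasi-likelihood test called *Timp1*, *Adamts1* and *Adamts9*, and also *Mmp12* with the same limit, all lower (1.81% of all genes lower). With any other uterus left out it called no member, and 1 to 6 of all genes. With 3 uteri a group, 0.1 is the smallest two-sided p of an exact permutation test, so single genes are described by their values in each uterus (controls 1, 2 and 3, then *Gp130* ecKO 1, 2 and 3), the fitted log2 fold change with its standard error (SE) and the adjusted p of the quasi-likelihood test.

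**Figure D2:**
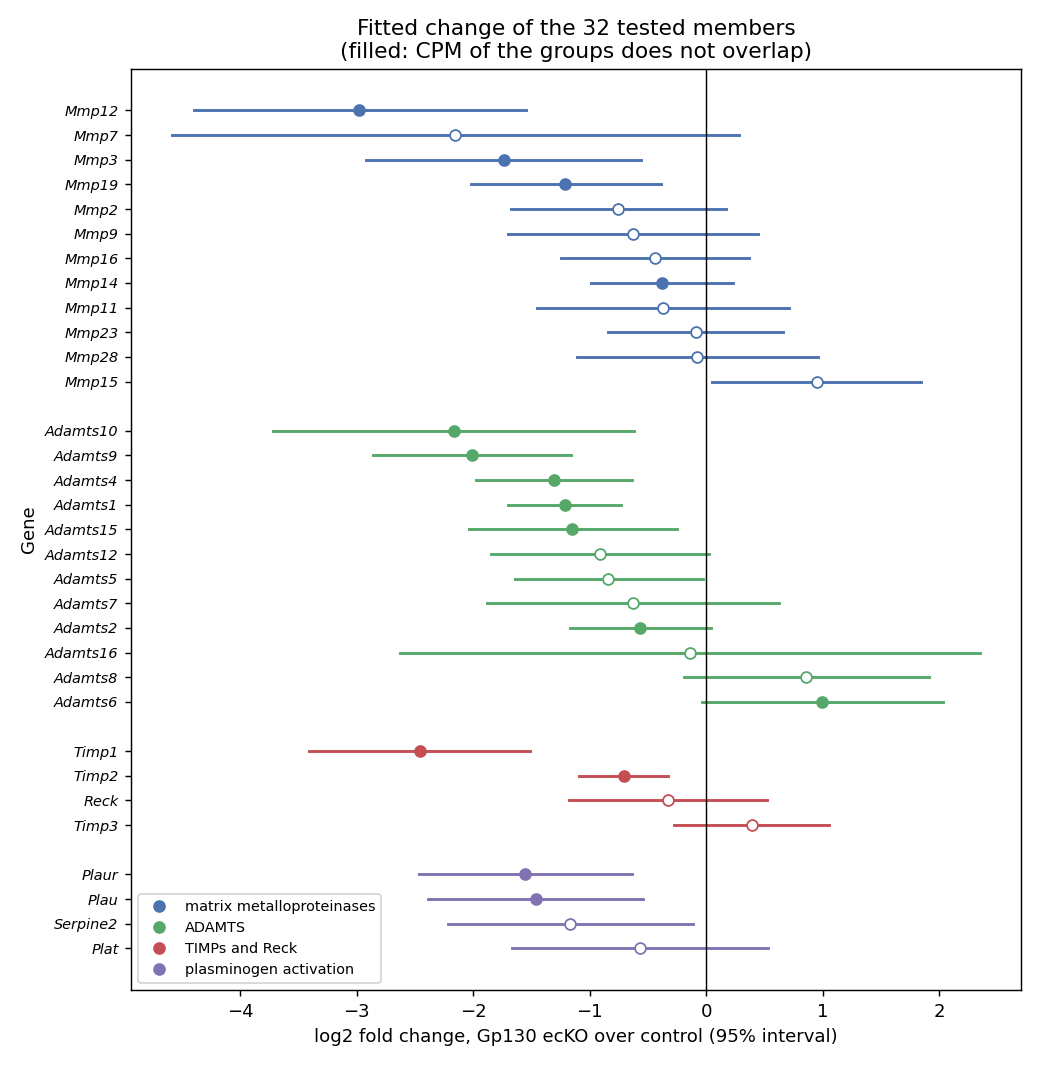
Fitted log2 fold change of *Gp130* ecKO over control (x axis) for the 32 tested members, grouped by family, with lines for the 95% interval of edgeR's quasi-likelihood fit and filled points where the CPM of the groups does not overlap. Points lie left of 0 in 28 of 32 genes, and those of *Mmp15*, *Adamts6*, *Adamts8* and *Timp3* lie to the right.

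Among the inhibitors, *Timp1* (ENSMUSG00000001131, chromosome X from 20736316 to 20740976 on GRCm39), a secreted inhibitor of most soluble MMPs, had 29.1, 14.4 and 29.1 CPM in the control. In *Gp130* ecKO it had 2.76, 4.27 and 6.135 CPM. The groups did not overlap, and control 2 was the control closest to *Gp130* ecKO. The log2 fold change was −2.46 (SE 0.41, 95% interval −3.41 to −1.51, adjusted p = 0.0598 by the quasi-likelihood test), with an adjusted p between 1.73e-06 and 0.175 over 16 alternative settings. *Timp1* lies inside the gene *Syn1* but shares no exon with it.

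*Timp2*, which blocks MMPs and also takes part in the activation of pro-MMP2 by MMP14 at the cell surface, had 185.5, 233 and 187 CPM in the control and 117, 131 and 122 in *Gp130* ecKO. Every *Gp130* ecKO uterus was lower, by less than 2-fold on average (log2 fold change −0.71, SE 0.16, adjusted p = 0.0821). *Timp2* shares exonic positions with *Cep295nl* on the same strand, so its count depends on how reads were divided. *Timp3*, which is held in the matrix and also inhibits several ADAMTS proteases, went the other way, with 148, 177 and 118 CPM in the control and 214.5, 243 and 122 in *Gp130* ecKO. Its groups overlapped, since *Gp130* ecKO 3 was within the range of the control (log2 fold change 0.39, SE 0.28, adjusted p = 0.419). *Reck*, a membrane-anchored inhibitor of MMPs, ranged from 14.85 to 20.25 CPM in the control and from 8.58 to 21.3 in *Gp130* ecKO and overlapped (log2 fold change −0.33, SE 0.36). *Timp4* was below the filter, with 5, 5 and 4 counts in the control and 9, 11 and 7 in *Gp130* ecKO.

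The makeup of the TIMP transcripts is given here as a description, without a test. Of the summed TPM (a level scaled for gene length as well as depth) of the 4 *Timp* genes, *Timp1* made up 30.1%, 15.7% and 32.8% in the control and 4.4%, 5.96% and 11.8% in *Gp130* ecKO. The share of *Timp3* was 25.1%, 31.4% and 21.8% in the control and 56.3%, 55.7% and 38.5% in *Gp130* ecKO. Neither share overlapped between the groups. That of *Timp2* did, at 44.8%, 52.9% and 45.4% in the control and 39.2%, 38.3% and 49.5% in *Gp130* ecKO. Shares of a sum depend on one another, so the lower share of *Timp1* and the higher share of *Timp3* are not separate changes. In CPM, *Timp3* itself overlapped between the groups. Summed TPM of the *Timp* genes was 156.7, 157.1 and 161.4 in the control and 113.9, 141.6 and 84.01 in *Gp130* ecKO. As summed TPM of the MMPs was also mostly lower, the ratio of TIMP to MMP transcripts overlapped, at 0.577, 0.48 and 0.415 in the control and 0.542, 0.435 and 0.395 in *Gp130* ecKO.

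**Figure D3:**
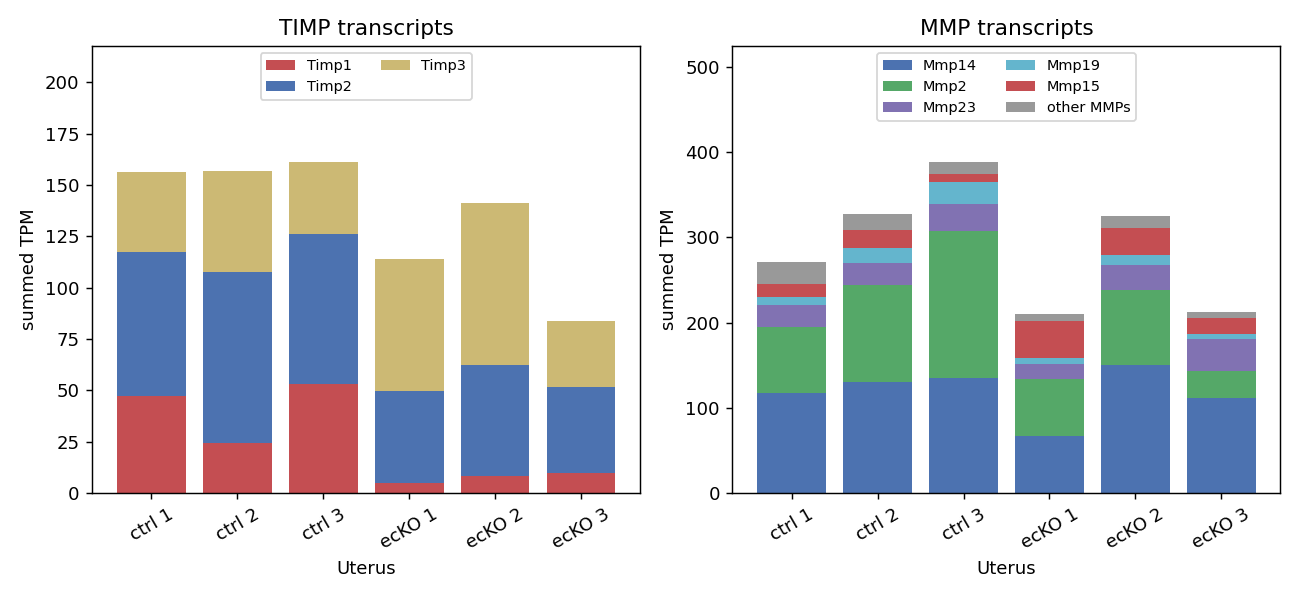
Summed TPM (y axis) in each uterus (x axis) of *Timp1*, *Timp2* and *Timp3* (left) and of the MMPs (right), stacked by gene from 0; *Timp4* is too low to be drawn. The *Timp1* part is smaller and the *Timp3* share larger in the 3 *Gp130* ecKO uteri, and *Mmp2* with *Mmp14* make up 63.4% to 79.1% of MMP transcripts.

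Among the MMPs, transcript levels per length were dominated by *Mmp14*, a membrane-type MMP that activates pro-MMP2, and by *Mmp2*, a gelatinase. Their mean TPM in the control was 128 and 121, and that in *Gp130* ecKO was 109.6 and 61.7. In CPM, *Mmp14* had 235, 242 and 237 in the control and 113.5, 214 and 222 in *Gp130* ecKO. All *Gp130* ecKO uteri were below the control, but 2 of them only slightly, and the change did not reach an unadjusted p below 0.05 (log2 fold change −0.38, SE 0.26, adjusted p = 0.392). On the authors' TPM, *Mmp14* overlapped between the groups. *Mmp2* ranged from 132 to 235 CPM in the control and from 56.7 to 165.5 in *Gp130* ecKO, with overlap (log2 fold change −0.76, SE 0.39).

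The member with the largest fitted fold change was *Mmp12*, macrophage metalloelastase, at a level close to the limit of detection. It had 28, 12 and 12 counts in the control and 1, 4 and 2 in *Gp130* ecKO, or 1.13, 0.463 and 0.8 CPM against 0.0452, 0.154 and 0.0829 CPM. Summed over the groups, 52 against 7 counts gave an 8.18-fold ratio of control over *Gp130* ecKO with a 95% interval of 3.70 to 21.3, which covers counting error only. The fitted log2 fold change was −2.98 (SE 0.63, adjusted p = 0.0677 by the quasi-likelihood test). *Mmp12* passed the filter on low counts only through the control, so that at this level a difference was a condition of being tested. Among 5 macrophage markers, *Mrc1* was lower at an unadjusted p below 0.05 (log2 fold change −1.28, SE 0.28) and 4 were not, with *Cd68* at a log2 fold change of 0.39 (SE 0.38). Their summed CPM was 68.1 to 87.8 in the control and 45.9 to 66.8 in *Gp130* ecKO, none of them was at 0, and their part in the difference of *Mmp12* was not tested.

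*Mmp3*, a stromelysin that cleaves many matrix proteins and can activate other MMPs, had 7.605, 3.78 and 2.73 CPM in the control and 1.94, 0.8845 and 1.45 in *Gp130* ecKO. The groups were separate, although the controls differed among themselves by more than 2-fold (log2 fold change −1.74, SE 0.51, adjusted p = 0.112). *Mmp19*, a secreted MMP of basement membranes, had 25.5, 44.1 and 59.9 CPM in the control and 15, 24.8 and 16.25 in *Gp130* ecKO. Control 1 and *Gp130* ecKO 2 nearly met, and the log2 fold change was −1.21 (SE 0.35, adjusted p = 0.112). Exons of *Mmp19* overlap those of *Tmem198b* and *Gm47093* on the other strand, as those of *Timp3* overlap *Syn3* and those of *Mmp12* overlap *Mmp1b*. The sources used here do not give the strand setting of the counting, so shared reads cannot be told apart.

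*Mmp15*, a membrane-type MMP, was the member that was higher at an unadjusted p below 0.05. It had 59.1, 81.9 and 33.3 CPM in the control and 159, 103 and 74.5 in *Gp130* ecKO. The groups overlapped, because *Gp130* ecKO 3 was below control 2 (log2 fold change 0.95, SE 0.38, adjusted p = 0.182). Of 6 epithelial markers, 3 were higher at an unadjusted p below 0.05 and none was at 0, with the summed CPM given above. The smallest p was that of *Krt8*, a keratin of simple epithelium (log2 fold change 1.32, SE 0.30), while the adhesion molecule *Epcam* had a log2 fold change of −0.19 (SE 0.27). The part of the epithelial markers in the difference of *Mmp15* was not tested.

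The other tested MMPs overlapped between the groups. *Mmp7*, the matrilysin made by epithelia, varied widely, from 0.6 to 7.565 CPM in the control and from 0.231 to 1.63 in *Gp130* ecKO (log2 fold change −2.16, SE 1.04). The fold change of *Mmp7* was −0.51 on the log2 scale without control 1 and −3.42 without *Gp130* ecKO 1, and 1 *Gp130* ecKO uterus reached the cutoff of the filter against 3 controls. *Mmp9*, a gelatinase abundant in neutrophils, was at 0.733 to 1.5 CPM in the control and 0.497 to 1.04 in *Gp130* ecKO (log2 fold change −0.63, SE 0.46). Neutrophil markers were sparse, with 3 of 5 tested lower at an unadjusted p below 0.05 and a summed CPM of 5.73 to 9.02 in the control and 1.22 to 4.64 in *Gp130* ecKO. These 3, *S100a8*, *S100a9* and *Retnlg*, entered the tested genes only through the control, so that a lower level was close to a condition of being tested. Of these markers, *S100a9* was at 0 in *Gp130* ecKO 1 and 2 and *S100a8* in *Gp130* ecKO 1. *Ly6g* had the opposite sign (log2 fold change 1.08, SE 0.73), with a range of 0.73 to 2.01 when each uterus was left out in turn. It reached the cutoff of the filter in 2 controls and 3 *Gp130* ecKO uteri, so its entry rested on *Gp130* ecKO, where it was higher. The markers' part in the values of *Mmp9* was not tested. *Mmp11*, *Mmp16*, *Mmp23* and *Mmp28* had log2 fold changes of −0.37, −0.44, −0.09 and −0.08 with SEs of 0.46, 0.35, 0.32 and 0.44. The direction of *Mmp23* and of *Mmp28* depended on single uteri, and the log2 fold change of *Mmp11* ranged from −1.01 to −0.09 when each uterus was left out in turn. *Mmp8*, *Mmp10*, *Mmp13* and *Mmp24* were below the filter. The collagenases *Mmp8* and *Mmp13* had at most 1 and 5 counts in any uterus and *Mmp10* had at most 1, where a count of 0 still allows up to 3 counts. *Mmp24* had 2, 2 and 1 counts in the control and 2, 3 and 3 in *Gp130* ecKO, and its groups did not overlap in CPM at these few counts. *Mmp13*, *Mmp12*, *Mmp3*, *Mmp10*, *Mmp8* and *Mmp7* are neighbours on chromosome 9 between 7272514 and 7699587, and within this cluster only *Mmp3*, *Mmp7* and *Mmp12* passed the filter.

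Among the ADAMTS proteases, 6 of 12 were lower at an unadjusted p below 0.05 and none was higher (12.9% and 12.1% of all genes). Their median log2 fold change was −0.88, against −0.05 over all genes tested and −0.05 over the 12 other ADAMTS and ADAMTS-like genes tested. *Adamts1* (ENSMUSG00000022893, chromosome 16 from 85590579 to 85600009), which cleaves versican and aggrecan, had 52, 45.6 and 66.5 CPM in the control and 20.75, 27 and 23.05 in *Gp130* ecKO. All 3 *Gp130* ecKO uteri were well below the lowest control, with a log2 fold change of −1.21 (SE 0.21, 95% interval −1.70 to −0.73, adjusted p = 0.0622 by the quasi-likelihood test). *Adamts9* (ENSMUSG00000030022, chromosome 6 from 92749680 to 92920520), a versican-cleaving protease that is among the most conserved of the family, had 119.6, 43.65 and 112 CPM in the control. In *Gp130* ecKO it had 23.55, 22.7 and 21.9 CPM, and these uteri lay close together while control 2 was well below controls 1 and 3. The log2 fold change was −2.01 (SE 0.36, 95% interval −2.86 to −1.16, adjusted p = 0.0636 by the quasi-likelihood test).

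*Adamts4*, an aggrecanase, had 12.6, 13.9 and 17.1 CPM in the control and 5.02, 7.61 and 4.89 in *Gp130* ecKO (log2 fold change −1.31, SE 0.29, adjusted p = 0.0789). The groups were separate and each was compact. *Adamts15*, also a versican-cleaving protease, had 23.5, 34.5 and 52.3 CPM in the control and 16.8, 22.7 and 10.1 in *Gp130* ecKO (log2 fold change −1.15, SE 0.38, adjusted p = 0.134). Control 1 was only just above *Gp130* ecKO 2. *Adamts5*, the other main aggrecanase, had 8.9, 13.3 and 14.5 CPM in the control and 6.19, 4.81 and 9.49 in *Gp130* ecKO. Here *Gp130* ecKO 3 was above control 1, so the groups overlapped (log2 fold change −0.84, SE 0.34, adjusted p = 0.187). *Adamts5* lies 53.1 kb from *Adamts1* on chromosome 16 on the same strand.

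*Adamts10*, which binds fibrillin microfibrils, had 6.96, 6.17 and 26.5 CPM in the control and 1.72, 4.46 and 2.49 in *Gp130* ecKO. The high value of control 3 stood apart from the other controls, and the log2 fold change was −2.17 (SE 0.66, adjusted p = 0.118), with a range of −2.63 to −1.18 when each uterus was left out in turn. *Adamts2*, the procollagen N-propeptidase, had 36.4, 36 and 38.8 CPM in the control and 17.5, 23.3 and 34.2 in *Gp130* ecKO. *Gp130* ecKO 3 was just below the control, and the unadjusted p was not below 0.05 (log2 fold change −0.57, SE 0.26, adjusted p = 0.221). *Adamts6*, a relative of *Adamts10*, was opposite in direction, with 2.59, 8.48 and 5.8 CPM in the control and 8.635, 14 and 10.9 in *Gp130* ecKO. Every *Gp130* ecKO uterus was above the control, although *Gp130* ecKO 1 exceeded control 2 by little (log2 fold change 0.99, SE 0.44, adjusted p = 0.214).

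*Adamts7* and *Adamts12*, which cleave cartilage oligomeric matrix protein, overlapped between the groups, with log2 fold changes of −0.63 (SE 0.53) and −0.91 (SE 0.40). That of *Adamts7* ranged from −1.44 to −0.30 when each uterus was left out in turn. *Adamts8* had 1.6 to 2.51 CPM in the control and 2.125 to 5.96 in *Gp130* ecKO (log2 fold change 0.86, SE 0.45). It lies 19.9 kb from *Adamts15* on chromosome 9, on the opposite strand, and the fitted changes of this pair had opposite signs. *Adamts16* varied more among uteri of a group than between the groups, with 0.93, 23.7 and 8.47 CPM in the control and 2.03, 20.5 and 7.63 in *Gp130* ecKO. Ordered by its level, the replicate numbers came in the same order in both groups. The fitted change of *Adamts16* had no stable sign (log2 fold change −0.14, SE 1.06).

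**Figure D4:**
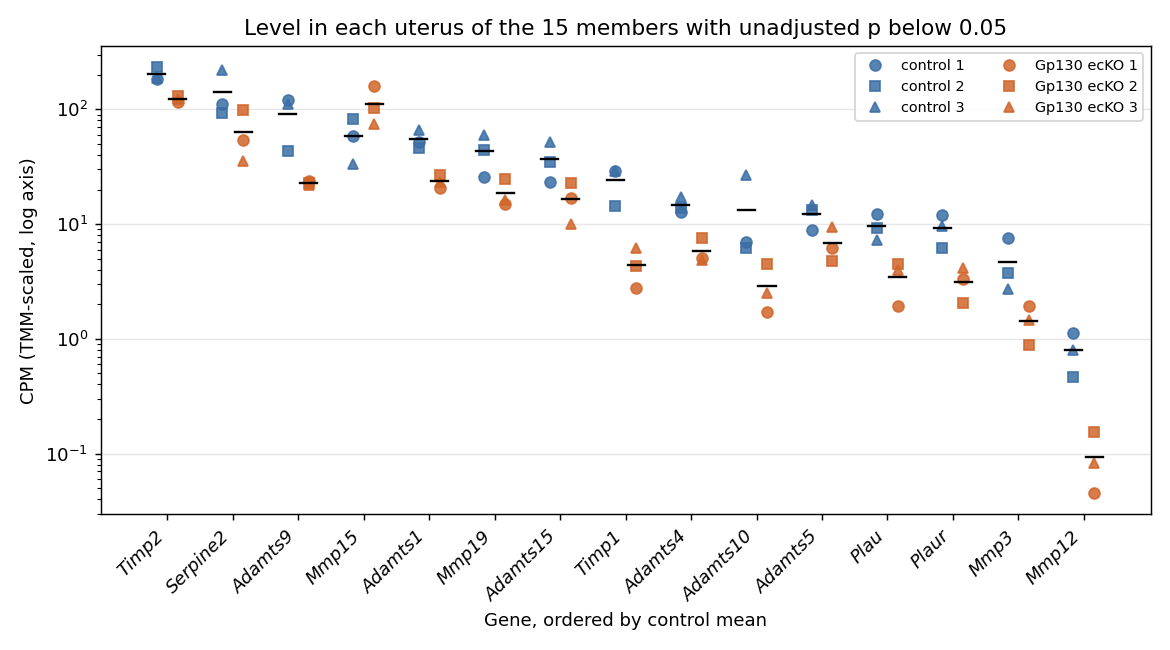
CPM (log axis) of the 15 members with an unadjusted p below 0.05, ordered by the mean of the control, in each of 3 control (blue) and 3 *Gp130* ecKO (orange) uteri, with black bars for group means. The groups do not overlap in 12 of the 15 genes, the exceptions being *Serpine2*, *Mmp15* and *Adamts5*, against 87.3% of all genes with such a p.

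In plasminogen activation, the urokinase activator and its receptor had lower values in all 3 *Gp130* ecKO uteri. *Plau* (urokinase) had 12.3, 9.29 and 7.2 CPM in the control and 1.94, 4.5 and 3.98 in *Gp130* ecKO (log2 fold change −1.46, SE 0.39, adjusted p = 0.102). *Plaur*, the receptor that holds urokinase at the cell surface, had 12, 6.13 and 9.67 CPM in the control and 3.3, 2.04 and 4.1 in *Gp130* ecKO (log2 fold change −1.56, SE 0.39, adjusted p = 0.0941). Neither gene overlapped between the groups. *Plat*, the tissue-type activator, was far more abundant per length, with a mean of 77 TPM in the control against 5.47 TPM for *Plau*. *Plat* ranged from 72.6 to 217 CPM in the control and from 51.45 to 146 in *Gp130* ecKO and overlapped (log2 fold change −0.57, SE 0.47). *Serpine2*, protease nexin, which inhibits both activators, had 111, 93 and 221 CPM in the control and 54.2, 99.4 and 35.3 in *Gp130* ecKO. Its groups overlapped through control 2 and *Gp130* ecKO 2 (log2 fold change −1.17, SE 0.45, adjusted p = 0.169).

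Since stromal markers were also lower, the members were set against them, a scale chosen after the data were seen. The geometric mean of 6 stromal markers (*Pdgfra*, *Dcn*, *Lum*, *Col1a1*, *Col3a1* and *Hoxa11*) was 306, 412 and 339 CPM in the control and 179, 222 and 229 CPM in *Gp130* ecKO, a log2 difference of −0.74. Relative to that mean, 3 members remained below the control in every *Gp130* ecKO uterus, against 1.31% of all genes. These were *Timp1*, *Mmp12* and *Plau*, with log2 differences of −1.72, −2.42 and −0.78, of which *Mmp12* had entered the tested genes only through its level in the control. On the same scale 4 members were higher in every *Gp130* ecKO uterus, against 48.1% of all genes, and these were *Mmp15*, *Adamts6*, *Adamts8* and *Timp3*. The other 25 tested members overlapped, including *Adamts1* and *Adamts9*, with log2 differences of −0.46 and −1.14. In the stromal list 3 of 6 markers were lower at an unadjusted p below 0.05 and none was at 0. The part of stromal content in the lower levels of the members cannot be told apart from a change within stromal cells.

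Other genes of the pathway were taken from 7 lists of 95 genes, of which 81 were tested. None had an adjusted p below 0.05 in the quasi-likelihood test, and 27 were lower and 2 were higher at an unadjusted p below 0.05, against 12.9% and 12.1% of all genes, which is the background for each list. The exact test called 5 and DESeq2 called 7, all lower, against 3.73% and 4.87% of all genes. Their median log2 fold change was −0.54. Substrates of these proteases were lower in 11 and higher in 1 of 20 tested genes at an unadjusted p below 0.05. The basement membrane collagens *Col4a1* and *Col4a2* had the smallest p-values there, with log2 fold changes of −1.50 (SE 0.35) and −1.42 (SE 0.35). The endothelial list, whose cells make such collagens too, had all 4 markers lower at an unadjusted p below 0.05, none at 0, and its part was not tested. Of the substrates, *Dcn*, *Lum*, *Col1a1* and *Col3a1* are also among the stromal markers. Versican (*Vcan*), a main substrate of *Adamts1* and *Adamts9*, had a log2 fold change of −1.17 (SE 0.55, adjusted p = 0.234) and was chosen after its values were seen. The log2 fold change of *Vcan* ranged from −1.94 to −0.66 when each uterus was left out in turn.

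In the list of other plasminogen genes and serpins, 2 of 12 were lower at an unadjusted p below 0.05. The smallest p was that of *Serping1*, the C1 inhibitor of complement and contact proteases. It had 401, 221 and 194 CPM in the control and 77.35, 66 and 76.8 in *Gp130* ecKO, without overlap (log2 fold change −1.89, SE 0.29, adjusted p = 0.0548 by the quasi-likelihood test). *Serpinh1*, a collagen chaperone, followed with a log2 fold change of −0.82 (SE 0.28). Among 10 ADAM sheddases tested, *Adam15* and *Adam19* were lower at an unadjusted p below 0.05 (log2 fold changes −1.07 and −0.97, SEs 0.26 and 0.35). Among 12 cathepsins and cystatins, 4 were lower and 1 was higher at an unadjusted p below 0.05, led by the lysosomal proteases *Ctsz* and *Ctsl* (log2 fold changes −0.86 and −0.98, SEs 0.22 and 0.25). Among 13 genes of activation and clearance, 5 were lower, led by *Cd63*, a tetraspanin that binds TIMP1, and *S100a10*, a plasminogen receptor subunit (log2 fold changes −0.76 and −0.87, SEs 0.19 and 0.27). Of 12 other ADAMTS and ADAMTS-like genes, 3 were lower at an unadjusted p below 0.05, all 3 of them ADAMTS-like genes without a protease domain, while the fitted change was negative in 6 and positive in 6. The first of the 3 by p were *Adamtsl5* and *Adamtsl1* (log2 fold changes −2.04 and −0.99, SEs 0.73 and 0.38), and without control 3 that of *Adamtsl5* was −0.94. The 2 other MMPs tested, *Mmp17* and *Mmp25*, had log2 fold changes of −0.32 (SE 0.61) and 0.22 (SE 0.54). The direction of both depended on single uteri, with ranges of −1.17 to 0.08 and −0.20 to 0.55 when each uterus was left out in turn.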

How the data were processed

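The authors made strand-specific libraries of poly(A) RNA from 6 whole uteri and read them single-ended at 75 bp. Per the methods and processing notes, reads were trimmed with fastp 0.23.2, freed of ribosomal RNA, mapped to GRCm39 with STAR 2.7.10a and counted with RSEM 1.3.3. The strand setting and the annotation version are not given in the sources used here. The authors deposited an expected count per gene, which is not normalized and can be fractional because RSEM divides shared reads. They also deposited TPM and FPKM, which RSEM computes from gene length and depth. TPM was used here for levels between genes and FPKM was not used.

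Rounded expected counts were analysed with edgeR 4.0.16 in R 4.3.3 (filterByExpr, TMM, quasi-likelihood F test over 16605 genes). Adjusted p-values are Benjamini-Hochberg, and calls needed an adjusted p below 0.05 and more than 2-fold change. CPM is the count over the TMM-scaled library size. The SE of a fitted log2 fold change was derived as its absolute value over the square root of the F statistic. The intervals of the fitted changes were built from these SEs. Total counts were 13960748 to 25906443. Alternatives were the exact and likelihood ratio tests, DESeq2 1.42.0, other normalizations and filters, counts without rounding, a block for the replicate number, and leaving out each uterus. The analysis was tested on simulated data, from which no result is reported here. Exact permutation tests used log2(CPM + 0.5).

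The members and lists were chosen with earlier results of these data known. All members are described, with values in each uterus for those with an unadjusted p below 0.05 or with no overlap, and from each other pathway list the 2 genes with the smallest p. Symbols and positions came from GENCODE M39, which matched 56017 of 56748 identifiers and all 37 members. The labels number the uteri of a group without naming animals, so p-values measure only the spread between these samples, which may in part be technical.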

Additional observations from a re-analysis of the deposited data

How the results depend on the processing

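The number of members called with more than 2-fold change, 0 by the quasi-likelihood test, was 10 with the exact test, 10 with the likelihood ratio test, 10 with DESeq2 and 1 (*Timp1*) without a filter on low counts, where 1239, 1317, 1542 and 105 of all genes were called. Leaving out each uterus in turn gave 0 to 4, the 4 being without control 2, when 892 of all genes were called against 26 with all uteri. Without the fold threshold the members were 11, 11 and 11 by those tests (8.90%, 9.50% and 13.3% of all genes), 1 without a filter (0.351%), and 0 to 4 with a uterus left out, the 4 again without control 2 (5.38%). Non-overlapping members were 15 (31.3% of all genes), 12 on the authors' TPM (28.7% of all genes, without *Adamts15*, *Mmp14* and *Mmp19*), 16 to 22 with a uterus left out (36.5% to 45.9% of all genes) and 7 relative to the stromal markers (49.4% of all genes). The number at an unadjusted p below 0.05 was 15 with all uteri (4149 of all genes) and 12 to 18 with a uterus left out (15.4% to 27.3% of all genes). Over the tested genes, deviations from the group mean correlated at 0.104, 0.0691 and −0.196 between uteri of the same replicate number. Between uteri of different numbers the correlations were −0.311 to 0.22. Pairing by number was thus not seen over the genes as a whole, which does not settle it for single members. The labels do not say whether uteri of the same number share a batch. With the replicate number as a block, 0 members and 6 of all genes were called, and 19 members had an unadjusted p below 0.05 (22.2% of all genes). Of 510 combinations of a tested member with an alternative that gave an adjusted p, 465 kept direction and side of the threshold, 38 passed it, and 7 turned direction, in 3 members. *Adamts16* was 0.14 with the replicate block and −1.19 to 1.21 with a uterus left out, *Mmp23* was −0.46 to 0.17 and *Mmp28* −0.32 to 0.28. Upper quartile scaling moved the median log2 fold change of all genes to −0.114. The cause was not tested. Depth limits *Mmp8*, *Mmp10*, *Mmp13*, *Mmp24* and *Timp4*, with at most 11 counts in a uterus.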
